A study of Oryctolagus cuniculus with 24 samples.

Results

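NF-kappaB is a family of transcription factors that white blood cells use to switch on inflammatory and survival genes. Its subunits, NFKB1, NFKB2, REL, RELB and RELA, bind DNA as pairs and are held inactive in the cytoplasm by inhibitor proteins of the IkappaB family until a stimulus has the inhibitor destroyed. Several of the inhibitors are themselves NF-kappaB target genes and so close a negative feedback loop, while the atypical nuclear members of the family, NFKBID and NFKBIZ, bind subunits on chromatin and modulate selected target genes in either direction. Bacterial lipopolysaccharide (LPS) reaches this pathway through TLR4, and the phorbol ester PMA with the calcium ionophore ionomycin reaches it through protein kinase C, as antigen receptors do.

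The list described here held 10 genes, namely 4 inhibitors or nuclear relatives of inhibitors (NFKBIA, NFKBID, NFKBIE and NFKBIZ), the 5 subunits, and the deubiquitinase TNFAIP3. Genes were taken from the list by name. A probe carrying the name of a member was found for 7 of the 10 genes, on 9 of the 42089 probes of the array, out of 28863 genes measured in all. NFKBIE, RELA and TNFAIP3 were matched to no probe by name and were not analysed here. Probes that carry an Ensembl number without a gene name may read them, and the study's own annotation has TNFAIP3 on this array. REL and NFKBIA were named through the RefSeq accession of their probes, and NFKB2, NFKBID and NFKBIZ through a gene number looked up in RefSeq's gene table. NFKB1 and RELB were named only through the list of genes whose probes had been added to the array.

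Peripheral blood mononuclear cells from 4 rabbits, which were adult females of the New Zealand White breed and are numbered 1, 2, 4 and 5, were cultured and profiled on a 1-colour Agilent custom array. Cells of each rabbit received buffer alone (mock), LPS at 1 µg/mL, or PMA at 10 ng/mL together with ionomycin at 1 µg/mL (PMA-Ionomycin), and were harvested after 4 h (T4) or 24 h (T24). This gave 6 groups of 4 arrays and 24 arrays in all, each array holding cells of 1 rabbit. All cells shared the same serum-containing medium, and mock cells had been through the same culture, so no group shows blood cells as they leave the animal. Because the cells were a mixture, fewer cells of a type and less RNA per cell cannot be told apart in any of these values.

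The level of a gene is given as log2 of its median spot signal minus the median of all spots on the same array, so that a value of 1 stands for 2 times the median spot. Where 4 values are listed for a group, they follow the order of rabbits 1, 2, 4 and 5. Differences between groups come from 1 limma fit over all 24 arrays, with Benjamini-Hochberg adjustment over the 28863 genes, and a gene passed at an adjusted p under 0.05.

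The probes that carried the findings are printed here in lower case and 5′ to 3′, since each is the only physical identity of its gene on the array. NFKBID, NFKBIZ and NFKBIA are shown because they were the genes whose PMA-Ionomycin effect changed with time by the interaction test, NFKB2 because its probe occurs again on the array, and NFKB1 and RELB because their names rest on the list of added genes alone. Per the file headers, the NFKBIA probe lies at chr17:55106935-55107262 on the minus strand of oryCun2, the NFKBIZ probe at chr14:118681783-118681959 on the minus strand and the NFKB2 probe at chr18:50412398-50412546 on the plus strand. These intervals of 328, 177 and 149 bases are longer than the 60-base probes. The probes of NFKBID, NFKB1 and RELB carry no coordinates in the files.
NFKBID: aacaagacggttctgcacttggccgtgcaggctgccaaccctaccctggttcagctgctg
NFKBIZ: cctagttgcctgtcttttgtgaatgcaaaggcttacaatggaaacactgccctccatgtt
NFKBIA: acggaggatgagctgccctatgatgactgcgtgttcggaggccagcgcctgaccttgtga
NFKB2: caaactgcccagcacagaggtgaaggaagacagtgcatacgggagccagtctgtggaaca
NFKB1: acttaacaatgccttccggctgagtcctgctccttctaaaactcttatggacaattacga
RELB: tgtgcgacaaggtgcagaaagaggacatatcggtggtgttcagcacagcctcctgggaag

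REL was read by 3 probes on the minus strand of chromosome 2 (oryCun2), at chr2:125306256-125306302, chr2:125306610-125306669 and chr2:125306670-125306729. The exon, intron or UTR that each probe lies in is not given in the sources used here. Every probe of the 7 genes was well above background on all 24 arrays and none of their spots was saturated, so that no value of these 7 genes is a bound.

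As to the whole data set, between 51.4% and 62.3% of the spots of an array were well above background. One array, mock at T24 of rabbit 5, was least like its group, with a median correlation of 0.969 across genes to the other 3 arrays against 0.977 to 0.992 for the other 23. It is kept in all values, and values without it are given where leaving it out changed the call of one of the 7 genes. The arrays lay on 3 slides of 8, and every slide held all 6 groups, and the range of differences within slides is given beside the first difference of each gene. Markers of monocytes, B cells and T cells were well above background on all 4 mock T4 arrays for 10 of 10, 6 of 6 and 8 of 10 measured genes.

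**Figure D1:**
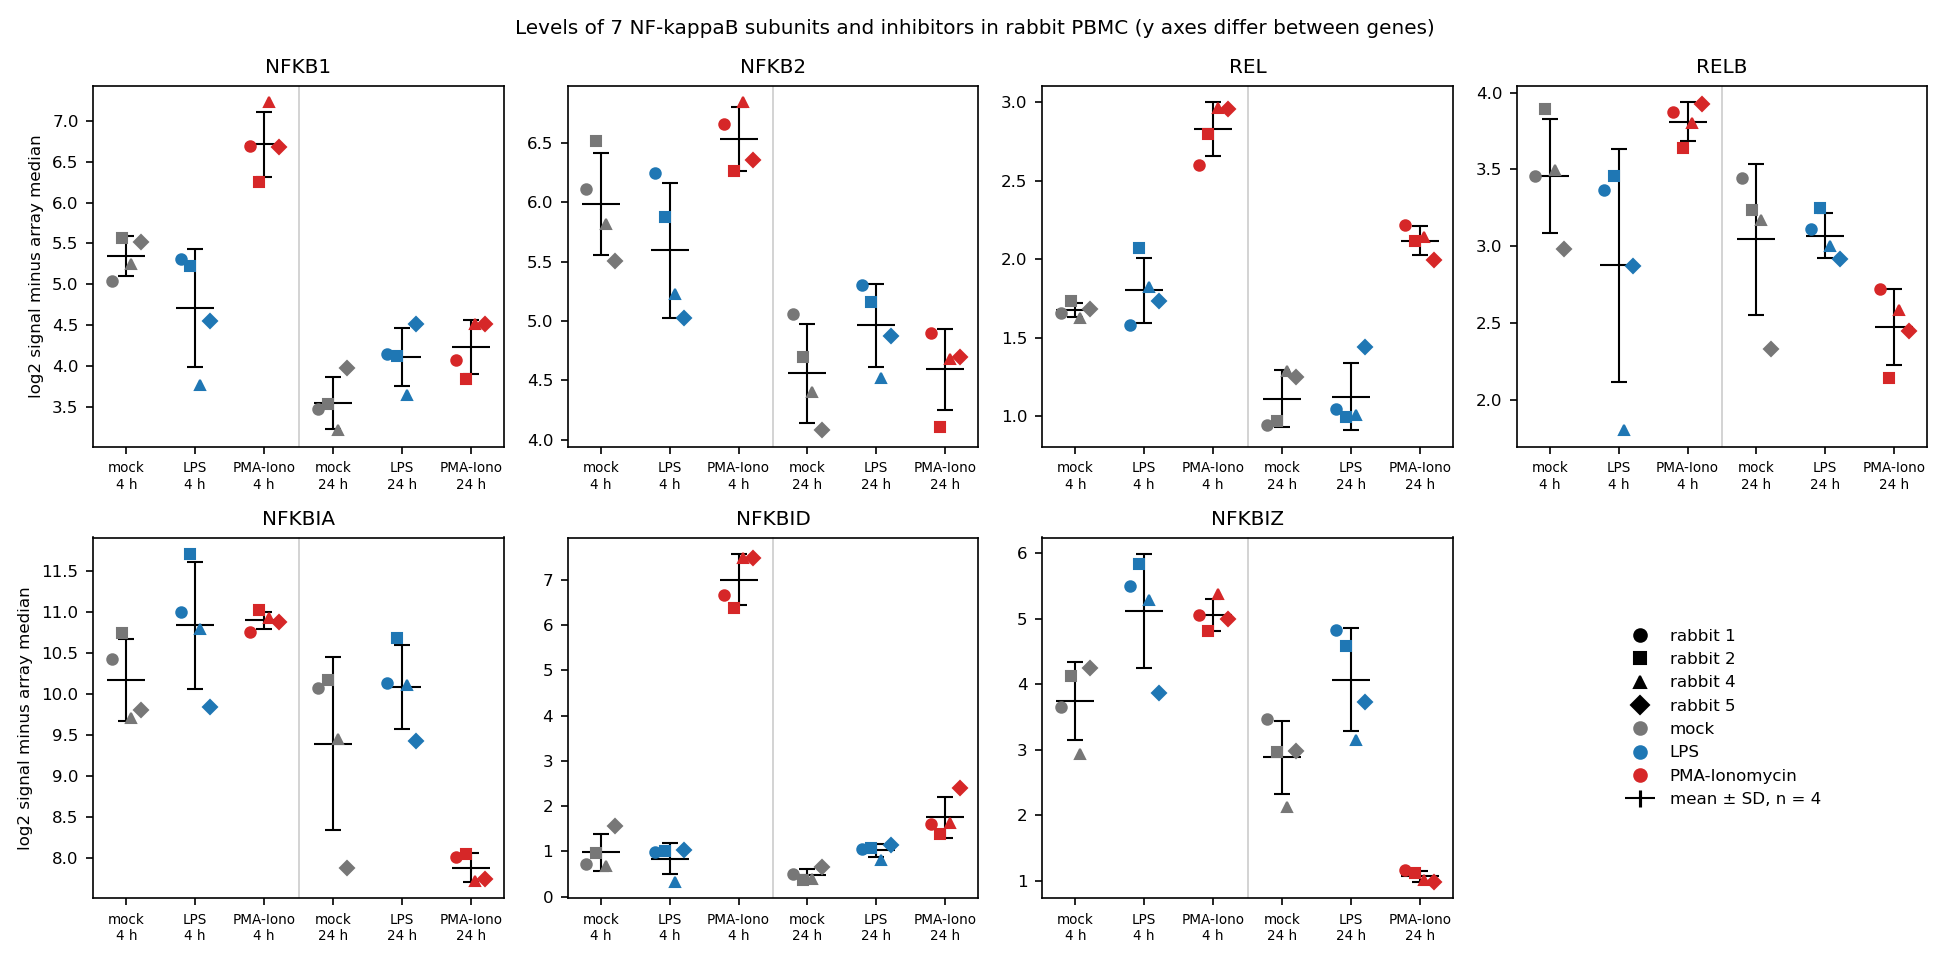
Log2 level of each of the 7 genes (y axis, log2 signal minus array median, own scale per gene) in the 6 groups (x axis). Points are single arrays with 1 shape per rabbit, and bars are the mean and SD over 4 rabbits. NFKBID stands between 6.38 and 7.49 in the PMA-Ionomycin T4 arrays and at or below 2.40 in all others, and NFKBIZ stands between 0.98 and 1.16 in the PMA-Ionomycin T24 arrays, below every other array.

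The measured inhibitors are described first. NFKBID, which encodes the nuclear protein IkappaBNS, had the widest range of the 7 genes, 6.52 on the log2 scale between the highest and the lowest group mean. Its log2 levels at T4 were 6.67, 6.38, 7.47 and 7.49 with PMA-Ionomycin, against 0.72, 0.97, 0.67 and 1.55 with mock and 0.98, 1.01, 0.33 and 1.03 with LPS. The PMA-Ionomycin arrays stood far above all others, and mock and LPS arrays overlapped. The difference from mock was 6.02 ± 0.25 (SE) on the log2 scale, a fold of 65.0 (adjusted p = 4.22e-14), and ran from 5.37 to 6.79 within the 3 slides.

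At T24 the log2 levels of NFKBID were 1.60, 1.38, 1.63 and 2.40 with PMA-Ionomycin, 1.05, 1.09, 0.82 and 1.14 with LPS, and 0.50, 0.38, 0.39 and 0.66 with mock. The 3 groups did not overlap and stood in that order. The rise with PMA-Ionomycin was still called but far smaller, 1.27 ± 0.25 (SE) on the log2 scale (adjusted p = 0.000214). The LPS difference of 0.54 ± 0.25 (SE) was positive in 4 of 4 rabbits and did not pass (adjusted p = 0.414). The loss of most of the PMA-Ionomycin effect between T4 and T24, tested as the interaction of stimulation and time, was -4.75 ± 0.35 (SE) on the log2 scale (adjusted p = 8.11e-10), and the per-rabbit values lay between -5.57 and -4.19.

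NFKBIZ encodes IkappaB-zeta, a nuclear protein needed for the induction of a set of secondary inflammatory genes such as IL6. At T4 its log2 levels were 5.06, 4.81, 5.38 and 4.99 with PMA-Ionomycin, 5.50, 5.84, 5.28 and 3.86 with LPS, and 3.65, 4.12, 2.94 and 4.25 with mock. All PMA-Ionomycin arrays were above all mock arrays, and 3 of the LPS arrays were too, while the LPS array of rabbit 5 lay among the mock arrays. The rise with PMA-Ionomycin was 1.32 ± 0.38 (SE) on the log2 scale (adjusted p = 0.0125), within slides 0.84 to 1.70. It did not pass without rabbit 1 (1.29, adjusted p = 0.0603), without rabbit 4 (0.95, adjusted p = 0.117) or after normexp background correction (1.05, adjusted p = 0.0608).

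The LPS difference of NFKBIZ at T4, 1.38 ± 0.38 (SE) on the log2 scale, was as large but did not pass (adjusted p = 0.0755). It was positive in 3 of 4 rabbits and within slides from 0.56 to 1.99. With the rabbit as a replicate block it passed (adjusted p = 0.0272), as it did with array weights (1.88, adjusted p = 0.00971) and without rabbit 5 (1.97, adjusted p = 0.0426). Against each other, PMA-Ionomycin and LPS differed at T4 by -0.06 ± 0.38 (SE) (adjusted p = 0.941).

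At T24 the same gene separated the stimulations. Its log2 levels were 1.16, 1.12, 1.01 and 0.98 with PMA-Ionomycin, 3.47, 2.96, 2.13 and 2.98 with mock, and 4.83, 4.59, 3.14 and 3.73 with LPS. PMA-Ionomycin arrays were all below the mock arrays, and mock and LPS arrays overlapped. NFKBIZ fell by 1.82 on the log2 scale with PMA-Ionomycin relative to mock (SE 0.38, adjusted p = 0.000489), and its difference from LPS was -3.003 ± 0.38 (SE) (adjusted p = 7.35e-07). The difference between LPS and mock was 1.19 ± 0.38 (SE), positive in 4 of 4 rabbits, and did not pass (adjusted p = 0.163), although it passed with array weights (1.39, adjusted p = 0.0352). The PMA-Ionomycin effect thus went from a rise at T4 to a fall at T24, an interaction of -3.13 ± 0.54 (SE) (adjusted p = 0.000113), with all 4 rabbits between -3.72 and -2.53.

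NFKBIA encodes IkappaB-alpha, the classical inhibitor that is destroyed on activation and resynthesised under NF-kappaB control. At T4 its log2 levels were 10.77, 11.03, 10.93 and 10.89 with PMA-Ionomycin, 11.01, 11.71, 10.80 and 9.84 with LPS, and 10.43, 10.75, 9.72 and 9.80 with mock. The PMA-Ionomycin arrays lay in a narrow band just above the mock arrays, whereas the LPS arrays spread over both. The log2 differences from mock were 0.73 ± 0.40 (SE) with PMA-Ionomycin (adjusted p = 0.236) and 0.67 ± 0.40 (SE) with LPS (adjusted p = 0.484), each positive in 4 of 4 rabbits. Within slides they ran from 0.018 to 1.17 and from -0.32 to 1.91. With the rabbit as a replicate block the PMA-Ionomycin difference passed (adjusted p = 0.0485), as it did with the 8 arrays of the comparison alone (adjusted p = 0.0389).

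At T24 the log2 levels of NFKBIA were 8.02, 8.05, 7.72 and 7.75 with PMA-Ionomycin, 10.14, 10.69, 10.11 and 9.43 with LPS, and 10.08, 10.17, 9.45 and 7.88 with mock. PMA-Ionomycin arrays lay below all LPS arrays and below 3 of the mock arrays, the exception being the mock array of rabbit 5 named above. NFKBIA fell by 1.51 on the log2 scale relative to mock (SE 0.40, adjusted p = 0.0039), and its difference from LPS was -2.21 ± 0.40 (SE) (adjusted p = 7.54e-05). Within slides the difference from mock ran from -2.44 to -0.65. The fall relative to mock was -2.02 without that mock array (adjusted p = 3.07e-05), -2.29 after quantile normalization (adjusted p = 3.47e-05) and did not pass without rabbit 1 (-1.33, adjusted p = 0.0615). The interaction of PMA-Ionomycin with time was -2.24 ± 0.56 (SE) (adjusted p = 0.00437), negative in 4 of 4 rabbits, and did not pass without rabbit 4 (-2.004, adjusted p = 0.0798).

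**Figure D2:**
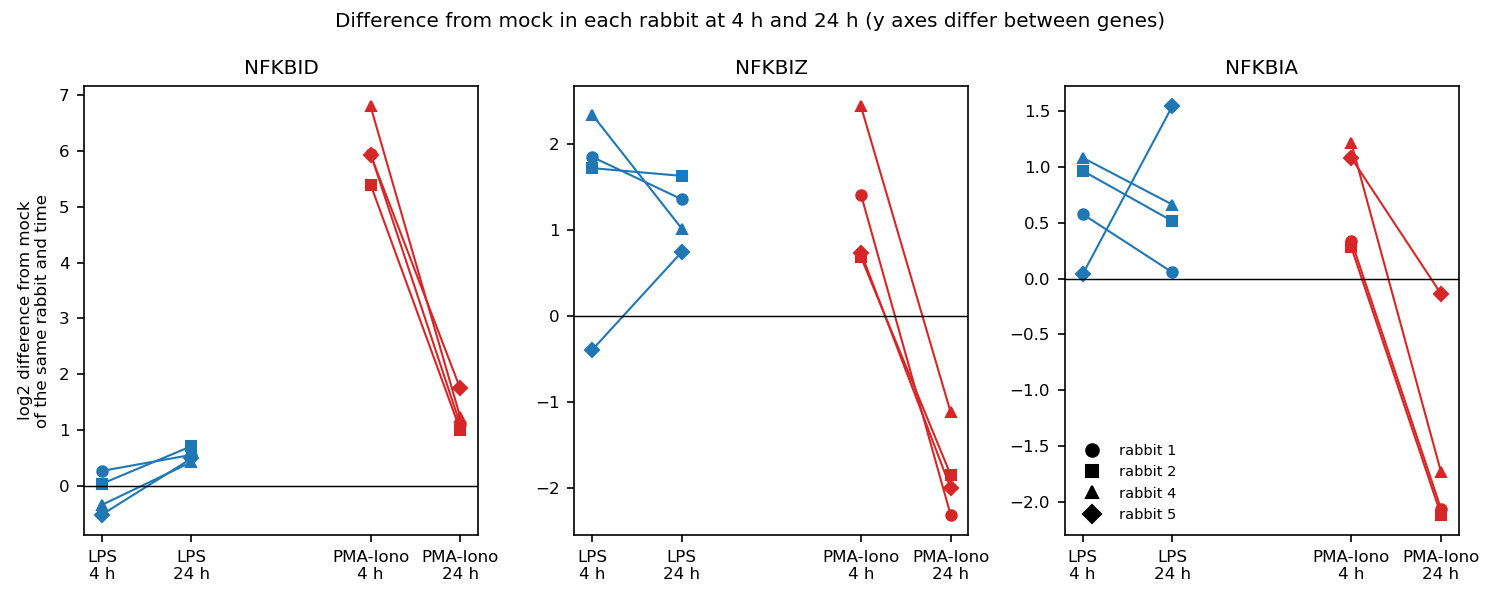
Log2 difference from the mock array of the same rabbit and time (y axis, own scale per gene) for NFKBID, NFKBIZ and NFKBIA with LPS (blue) and PMA-Ionomycin (red) at 4 h and 24 h (x axis), with 1 line per rabbit. The genes shown are those with a called interaction of PMA-Ionomycin with time. Their 12 PMA-Ionomycin lines all go down from 4 h to 24 h, which adds no separate support. In NFKB1, NFKB2 and RELB, not shown, the PMA-Ionomycin effect also went down in 4 of 4 rabbits. The LPS lines of NFKBID go up in 4 of 4 rabbits, and those of NFKBIZ and NFKBIA go in both directions.

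These falls at T24 were measured in cells whose monocyte markers were also low. Of 10 measured monocyte markers, 9 were called lower with PMA-Ionomycin at T24, and their summed level, in multiples of the array median, was 78.6 to 149 with PMA-Ionomycin, 449 to 2682 with mock and 1587 to 3706 with LPS. The 10 T cell markers summed to 17.1 to 19.8 with PMA-Ionomycin and 13.9 to 20.5 with mock at T24. Other markers differed without overlap at T24, the 5 neutrophil markers at 5.19 to 6.73 with PMA-Ionomycin and 11.2 to 24.7 with mock, the 2 NK cell markers at 3.60 to 4.96 and 1.63 to 2.70, and the 5 platelet markers at 9.44 to 14.04 and 5.16 to 7.73. At T4 the monocyte markers summed to 103 to 223 with PMA-Ionomycin and 434 to 644 with mock, and the 6 B cell markers to 20.2 to 44.7 and 259 to 569, and the platelet markers to 9.78 to 20.7 and 48.8 to 112, while the neutrophil markers nearly met, at 5.45 to 7.29 and 7.30 to 10.5. The part of these marker changes in the values of the 7 genes, and in those of the other pathway genes described further on, was not tested.

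Among the subunits, REL rose with PMA-Ionomycin at both times. REL encodes c-Rel, the subunit best known from activated lymphocytes. Its log2 levels at T4 were 2.60, 2.80, 2.96 and 2.96 with PMA-Ionomycin, 1.58, 2.07, 1.82 and 1.73 with LPS, and 1.66, 1.74, 1.62 and 1.69 with mock. At T24 they were 2.22, 2.11, 2.14 and 1.997 with PMA-Ionomycin, 1.05, 0.99, 1.01 and 1.44 with LPS, and 0.94, 0.97, 1.29 and 1.25 with mock. PMA-Ionomycin arrays were above all mock and all LPS arrays of their time. The rise over mock was 1.15 ± 0.13 (SE) on the log2 scale at T4 (adjusted p = 2.47e-07) and 1.01 ± 0.13 (SE) at T24 (adjusted p = 6.55e-07), folds of 2.23 and 2.01, and no change of this rise with time was called (-0.15 ± 0.18 (SE), adjusted p = 0.702). The slides gave between 0.86 and 1.32 for T4 and between 0.95 and 1.17 for T24. LPS differed from mock by 0.13 ± 0.13 (SE) at T4 and 0.01 ± 0.13 (SE) at T24, neither of which passed (adjusted p = 0.688 and 0.997). The 3 probes of REL, taken one at a time, each gave the rise at both times, between 0.90 and 1.21.

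NFKB1 is the gene of the precursor from which the most widely used DNA-binding subunit is cut. Its log2 levels at T4 were 6.69, 6.26, 7.23 and 6.68 with PMA-Ionomycin, 5.31, 5.23, 3.76 and 4.55 with LPS, and 5.05, 5.57, 5.25 and 5.51 with mock. PMA-Ionomycin arrays stood above all others, and 2 of the LPS arrays, those of rabbits 4 and 5, lay below every mock array. The rise over mock was 1.37 ± 0.28 (SE) on the log2 scale (adjusted p = 0.000597), within slides 1.11 to 1.53, and that over LPS was 2.002 ± 0.28 (SE) (adjusted p = 5.96e-06). The LPS difference from mock, -0.64 ± 0.28 (SE), did not pass (adjusted p = 0.293), and ran from -0.94 to -0.35 with 1 rabbit left out.

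At T24 the log2 levels of NFKB1 were 4.08, 3.84, 4.51 and 4.51 with PMA-Ionomycin, 4.14, 4.12, 3.65 and 4.52 with LPS, and 3.47, 3.54, 3.21 and 3.98 with mock. The groups overlapped, although each rabbit had its mock array lowest. Differences from mock were 0.68 ± 0.28 (SE) with PMA-Ionomycin (adjusted p = 0.0627) and 0.56 ± 0.28 (SE) with LPS (adjusted p = 0.484). The PMA-Ionomycin difference passed without dim probes (0.68, adjusted p = 0.0434), with the 8 arrays of the comparison alone (0.68, adjusted p = 0.0230), with array weights (0.83, adjusted p = 0.00540) and without the mock array of rabbit 5 (0.83, adjusted p = 0.0336). It was smaller after quantile normalization (0.20, adjusted p = 0.660) and without rabbit 4 (0.48, adjusted p = 0.153), where it did not pass. The change of the PMA-Ionomycin effect on NFKB1 between T4 and T24, -0.68 ± 0.39 (SE), did not pass either (adjusted p = 0.266).

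NFKB2, the precursor gene of the non-canonical arm of the pathway, and RELB, the subunit that pairs with its product, had no called difference between a stimulation and mock. The log2 levels of NFKB2 at T4 were 6.66, 6.26, 6.84 and 6.35 with PMA-Ionomycin, 6.25, 5.87, 5.23 and 5.03 with LPS, and 6.11, 6.52, 5.81 and 5.51 with mock. PMA-Ionomycin arrays were above the LPS arrays, the closest being at 6.26 and 6.25, with a mean difference of 0.94 ± 0.27 (SE) on the log2 scale (adjusted p = 0.00997) and 0.68 to 1.13 within slides, and overlapped the mock arrays (0.54 ± 0.27 (SE), adjusted p = 0.175). At T24 the 3 groups overlapped, with means ± SD (n = 4) of 4.59 ± 0.34 for PMA-Ionomycin, 4.96 ± 0.35 for LPS and 4.56 ± 0.42 for mock. The T24 difference of NFKB2 between PMA-Ionomycin and LPS, -0.37 ± 0.27 (SE), did not pass (adjusted p = 0.343), but did after quantile normalization (-0.96, adjusted p = 0.00281), after normexp (-0.96, adjusted p = 0.00292) and with Agilent's processed signal (-0.71, adjusted p = 0.0416). The same 60 bases were spotted 3 more times under the Ensembl gene number ENSOCUG00000005735, and those spots followed the NFKB2 probe over the 24 arrays to within 0.10 on the log2 scale once each was centred on its own mean.

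The log2 levels of RELB at T4 were 3.88, 3.64, 3.80 and 3.93 with PMA-Ionomycin, 3.37, 3.46, 1.80 and 2.87 with LPS, and 3.46, 3.89, 3.50 and 2.98 with mock. The PMA-Ionomycin arrays were tightly grouped and above the LPS arrays, by 0.94 ± 0.28 (SE) (adjusted p = 0.0122) and 0.26 to 2.13 within slides. The LPS array of rabbit 4, which had the lowest share of spots well above background, lay lowest of all 24. The differences of NFKB2 and RELB between PMA-Ionomycin and LPS at T4 did not pass under quantile normalization (0.56 and 0.61, adjusted p = 0.0858 and 0.0778), with the other 2 scalings from the scanner signals, or without rabbit 4 (0.71 and 0.58, adjusted p = 0.159 and 0.172). At T24 RELB was 2.47 ± 0.25 (SD, n = 4) with PMA-Ionomycin, 3.07 ± 0.15 with LPS and 3.04 ± 0.49 with mock, with the PMA-Ionomycin arrays below the LPS arrays. The differences of -0.59 ± 0.28 (SE) from LPS (adjusted p = 0.104) and -0.57 ± 0.28 (SE) from mock (adjusted p = 0.128) did not pass, but both passed under quantile normalization (-0.91 and -0.85, adjusted p = 0.00678 and 0.0126). Without the mock array of rabbit 5 the difference from mock also passed (-0.81, adjusted p = 0.0237). The change of the PMA-Ionomycin effect on RELB between T4 and T24, -0.92 ± 0.39 (SE), did not pass (adjusted p = 0.0991), but did without that array (-1.16, adjusted p = 0.0243) and after quantile normalization (-1.03, adjusted p = 0.0437).

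**Figure D3:**
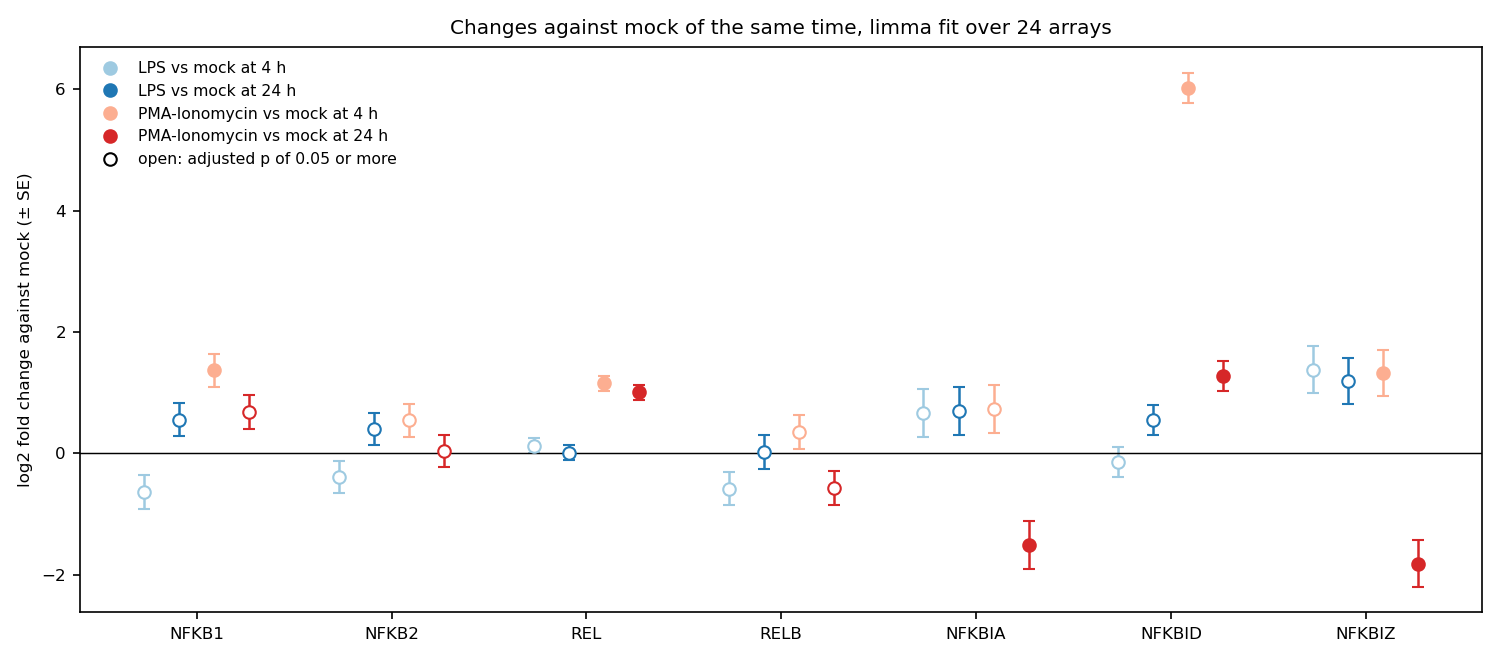
Log2 fold change against mock of the same time (y axis) with its SE for each of the 7 genes (x axis) in the 4 comparisons with mock. Filled points passed at an adjusted p under 0.05 and open points did not. All LPS points are open, 4 PMA-Ionomycin points at 4 h are filled above zero, and at 24 h those of REL and NFKBID are filled above and those of NFKBIA and NFKBIZ below zero.

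Counted over the 7 genes, PMA-Ionomycin at T4 gave 4 that rose relative to mock (NFKBID, NFKB1, NFKBIZ and REL) and 0 that fell, where 13.4% of all genes were called higher and 9.33% lower. The median log2 difference was 1.15 over the 7 genes and 0.05 over all genes. At T24, 2 rose (REL and NFKBID) and 2 fell (NFKBIA and NFKBIZ), where 22.1% of all genes were called higher and 11.5% lower, with medians of 0.03 over the 7 genes and 0.03 over all genes. The T24 median over the 7 genes rested on the scaling, at -0.48 after quantile normalization and -0.28 with Agilent's processed signal, where all genes had -0.0040 and -0.26, and it was -0.13 without the mock array of rabbit 5. PMA-Ionomycin relative to LPS gave 5 higher at T4 (NFKBID, NFKB1, REL, NFKB2 and RELB) and 0 lower against 17.7% and 9.03% of all genes. At T24 it gave 2 higher (REL and NFKBID) and 2 lower (NFKBIZ and NFKBIA) against 23.6% and 12.5%. The call of NFKBID against LPS at T24 (0.73 ± 0.25 (SE), adjusted p = 0.0227) was lost under quantile normalization (0.57, adjusted p = 0.0615) and without rabbit 1, 4 or 5. These comparisons share arrays with one another and are not independent counts.

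With LPS, limma called 0 of the 7 genes at T4 and 0 at T24. Unadjusted p was under 0.05 for 3 of them at T4, NFKBIZ above mock and NFKB1 and RELB below it, and for 2 at T24, NFKBIZ and NFKBID, both above mock. Few genes passed at all, 0.0554% higher and 0.97% lower at T4 and 0.637% higher and 0.582% lower at T24, while 4013 and 3129 of all genes had an unadjusted p under 0.05. The medians over the 7 genes were -0.14 at T4 and 0.54 at T24, against 0.06 and -0.03 over all genes, and the T24 value was 0.25 without the mock array of rabbit 5. No change of the LPS effect with time passed among the 7 genes, where 1.7% of all genes passed as higher and 0.239% as lower. An unadjusted p under 0.05 for that change was found for 4716 of the 28863 genes and for 2 of the 7. These were NFKB1 (1.19 ± 0.39 (SE), adjusted p = 0.113) and NFKB2 (0.80 ± 0.38 (SE), adjusted p = 0.294). For the change of the PMA-Ionomycin effect with time, 3 of the 7 passed as lower (NFKBID, NFKBIZ and NFKBIA) and 0 as higher, against 8.14% and 14.4% of all genes.

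Between the mock groups, 3 of the 4 measured subunits fell with culture time. Between mock at T4 and mock at T24, NFKB1 fell by 1.80 on the log2 scale (SE 0.28, adjusted p = 6.54e-05), NFKB2 fell by 1.43 (SE 0.27, adjusted p = 0.000561) and REL fell by 0.56 (SE 0.13, adjusted p = 0.00292), each lower in 4 of 4 rabbits and in groups that did not overlap. That made 3 of 7 genes called lower and 0 called higher, where 5.13% of all genes were called lower and 7.4% higher. The fall of REL did not pass without rabbit 2 (-0.50, adjusted p = 0.0520). The other 4 genes were also lower in each rabbit without passing, RELB by -0.41, NFKBIA by -0.78, NFKBID by -0.50 and NFKBIZ by -0.85 on average. Without the mock array of rabbit 5 the difference was -0.17 for RELB and -0.27 for NFKBIA. Within slides the falls ran from -2.04 to -1.68 for NFKB1, -1.82 to -0.91 for NFKB2 and -0.77 to -0.42 for REL. Markers of other cells moved between the same groups. Of 5 measured platelet markers 4 were called lower at T24, with a summed level of 48.8 to 112 at T4 and 5.16 to 7.73 at T24. Of 5 neutrophil markers 3 were called higher, from 7.30 to 10.5 at T4 and 11.2 to 24.7 at T24, and of 10 monocyte markers 6, from 434 to 644 and 449 to 2682. Their part in the falls of the subunits was not tested.

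Ordered by their group means, 6 of the 7 genes were highest with PMA-Ionomycin at T4, the exception being NFKBIZ, whose LPS T4 mean of 5.12 ± 0.87 (SD, n = 4) and PMA-Ionomycin T4 mean of 5.06 ± 0.24 overlapped. NFKB1, NFKB2, REL and NFKBID were lowest with mock at T24, and RELB, NFKBIA and NFKBIZ with PMA-Ionomycin at T24. In NFKBID the arrays of the 2 highest groups were each clear of the next group, since its 4 PMA-Ionomycin T24 arrays also exceeded all LPS T24 arrays. In NFKB1 the highest group was clear of the next. In REL the highest group was clear of the next, and so was mock at T4 of LPS at T24 below it. In NFKBIZ the lowest group stood clear of its neighbour. In NFKB2, RELB and NFKBIA each group overlapped its neighbour in the order. The shares of all genes with such orders or gaps were not counted, so these counts describe the 7 genes alone.

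The genes nearest in profile to the 3 members of widest range were sought among 9572 other named genes, by the root mean square difference of log2 levels over the 24 arrays after centring each gene on its own mean. Nearest to NFKBID were IL13, a cytokine of type 2 T cells (0.697), CRTAM, a receptor of activated cytotoxic lymphocytes (0.741), and NR4A2, an immediate early nuclear receptor (0.811), against a median over genes of 2.29. Nearest to NFKBIZ were IER3, an early stress response gene (0.601), NFKBIA itself (0.659) and SAT1, a polyamine acetylating enzyme (0.692), against a median of 1.50. Nearest to NFKB1 were AARS1, an alanyl-tRNA synthetase (0.344), CHAC1, an enzyme of glutathione breakdown (0.395), and IRF4, a lymphocyte transcription factor (0.399), against a median of 1.12. The arrays behind each value share their groups, so that these values describe a likeness and carry no test.

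The rest of the pathway was read from lists of textbook members. Of 33 measured target genes, PMA-Ionomycin at T4 raised 17 and lowered 3 relative to mock, with a median log2 difference of 1.24, where 13.4% of all genes were called higher and 9.33% lower and their median was 0.05. The rises named by rule were those of CSF2 (7.88 ± 0.43 (SE)), a myeloid growth factor, IL2 (5.40 ± 0.16), the T cell growth factor, whose probes were well above background on 1 of 4 mock arrays, and PLAU (3.91 ± 0.56), the urokinase protease. The falls were those of LTB (-4.12 ± 0.44), a lymphoid tissue cytokine, IL23A (-3.07 ± 0.51), a cytokine subunit of myeloid cells, and CXCL10 (-2.54 ± 0.44), an interferon-induced chemokine measured above background on 3 of 4 PMA-Ionomycin arrays. At T24, 16 rose and 3 fell, with a median of 0.65 (22.1%, 11.5% and 0.03 over all genes), and counts of 9 and 6 under quantile normalization, 14 and 7 without the mock array of rabbit 5 or with array weights and 13 and 7 without rabbit 5. CSF2 (5.92 ± 0.43) and F3 (4.22 ± 0.89), the tissue factor gene, rose, with probes well above background on 2 and 3 of 4 mock arrays. IL2 was not well above background on any mock array at T24 and was at least 22.4-fold higher with PMA-Ionomycin (adjusted p = 1.44e-14), a bound set by the higher of the probe's own signal and the dimmest signal well above background on each mock array. LTB (-4.94 ± 0.44), IL1B (-3.40 ± 0.77) and IL23A (-3.01 ± 0.51) fell.

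With LPS, 1 of the 33 target genes rose at T4, IL23A (2.27 ± 0.51 (SE), adjusted p = 0.0397), and 0 fell, where 0.0554% of all genes were called higher and 0.97% lower. None was called with any other scaling, with only the arrays compared, without rabbit 2 or without rabbit 4, whereas 5 rose with the rabbit as a replicate block and 7 with array weights. At T24, 5 rose and 1 fell against 0.637% and 0.582% of all genes. These counts were 10 and 1 with that block, 1 and 0 with only the arrays compared and 2 and 0 without rabbit 4. F3 (5.63 ± 0.89, above background on 3 of 4 mock arrays) and the inflammatory cytokine genes IL6 (4.73 ± 0.72) and IL1B (4.16 ± 0.77) rose, and MYC, a growth regulator, fell by 0.92 (SE 0.19). In the same comparison the neutrophil markers summed to 6.78 to 8.92 with LPS and 11.2 to 24.7 with mock. The monocyte markers overlapped, at 1587 to 3706 and 449 to 2682. The part of these markers in the target genes was not tested.

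Of 25 measured activating kinases and adaptors, 5 rose and 2 fell with PMA-Ionomycin at T4 and 7 rose and 10 fell at T24, with medians of -0.06 and -0.51. Over all genes 13.4% were called higher and 9.33% lower at T4 and 22.1% and 11.5% at T24, with medians of 0.05 and 0.03. The T24 counts were 4 and 11 after quantile normalization and 3 and 14 when Agilent's processed signal was used, relative to the 75th percentile of each array. The T24 median was -0.93 with that signal and -0.28 without rabbit 2. The T4 median was -0.17 with that signal, 0.03 without rabbit 5 and 0.0044 without rabbit 2. TRAF5, an adaptor of TNF receptors, rose at T4 and T24 (2.21 ± 0.21 and 1.87 ± 0.21 (SE)), as did the ubiquitin ligase BIRC3 (1.55 ± 0.24 and 0.72 ± 0.24). At T4 BIRC2 (1.37 ± 0.17) rose and MALT1 (-1.71 ± 0.24), the paracaspase that carries the signal from protein kinase C, and TRADD (-1.08 ± 0.23) fell. At T24 RIPK2 (1.59 ± 0.36) rose, while IKBKE (-1.36 ± 0.18, above background on 3 of 4 PMA-Ionomycin arrays), RIPK1 (-1.34 ± 0.17) and MAP3K14 (-1.22 ± 0.17), the kinase of the non-canonical arm, fell. With LPS at T4, 4 fell and 0 rose against 0.97% and 0.0554% of all genes, among them MYD88, the adaptor of Toll-like receptors (-1.19 ± 0.23, adjusted p = 0.0214), TRADD (-0.95 ± 0.23) and RIPK1 (-0.79 ± 0.17), but 1 fell with the deposited log2 table, 0 with that processed signal, 0 with only the arrays compared, 0 or 1 with any 1 rabbit left out and 6 with the rabbit as a replicate block. Of 10 monocyte markers 2 were lower in the same comparison, CD14 (-1.55, adjusted p = 0.0373) and CSF1R (-1.44, adjusted p = 0.0492), with a summed level of 154 to 493 with LPS and 434 to 644 with mock, and their part in these falls was not tested. At T24 0 of 25 passed with LPS by limma, and 1 rose when array weights were used. An unadjusted p under 0.05 was found there for 4 of the 25 and for 3129 of the 28863 genes.

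Of 14 other inhibitors and negative regulators measured, 2 rose and 5 fell with PMA-Ionomycin at T4 and 1 rose and 8 fell at T24, with medians of -0.16 and -0.50, beside the same shares and medians over all genes as for the kinases. The counts were 1 and 3 at T4 without rabbit 5 and 1 and 5 at T24 without rabbit 2, and the T24 median was -1.001 with Agilent's processed signal. Monocyte markers were low in the same comparisons, with sums of 78.6 to 149 against 449 to 2682 at T24. B cell markers were low at T4, as given above. At T24 their sums overlapped, at 112 to 247 with PMA-Ionomycin and 151 to 678 with mock, and 3 of 6 were called lower. The part of these markers in the falls of the inhibitors was not tested. NFKBIB, the gene of IkappaB-beta, rose at T4 (1.04 ± 0.21 (SE)), and NKIRAS2, a small GTPase that binds IkappaB proteins, rose at both times (0.53 ± 0.14 and 0.66 ± 0.14). IRAK3, a brake on Toll-like receptor signalling, fell at both (-1.20 ± 0.17 and -1.91 ± 0.17), as did TANK (-0.96 ± 0.15 and -1.19 ± 0.15). COMMD1 fell at T4 (-0.91 ± 0.12), and BCL3, another nuclear IkappaB protein, at T24 (-1.15 ± 0.22). With LPS, 0 passed at T4 by limma, where 0.0554% of all genes were called higher and 0.97% lower. An unadjusted p under 0.05 was found there for 5 of the 14 and for 4013 of the 28863 genes. At T24, where 0.637% of all genes were called higher, IRAK3 alone rose (0.95 ± 0.17, adjusted p = 0.00307). With the rabbit as a replicate block or with array weights, 1 more gene rose at T24. No gene of the list passed at T24 with only the arrays compared, without rabbit 2 or without rabbit 4.

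**Figure D4:**
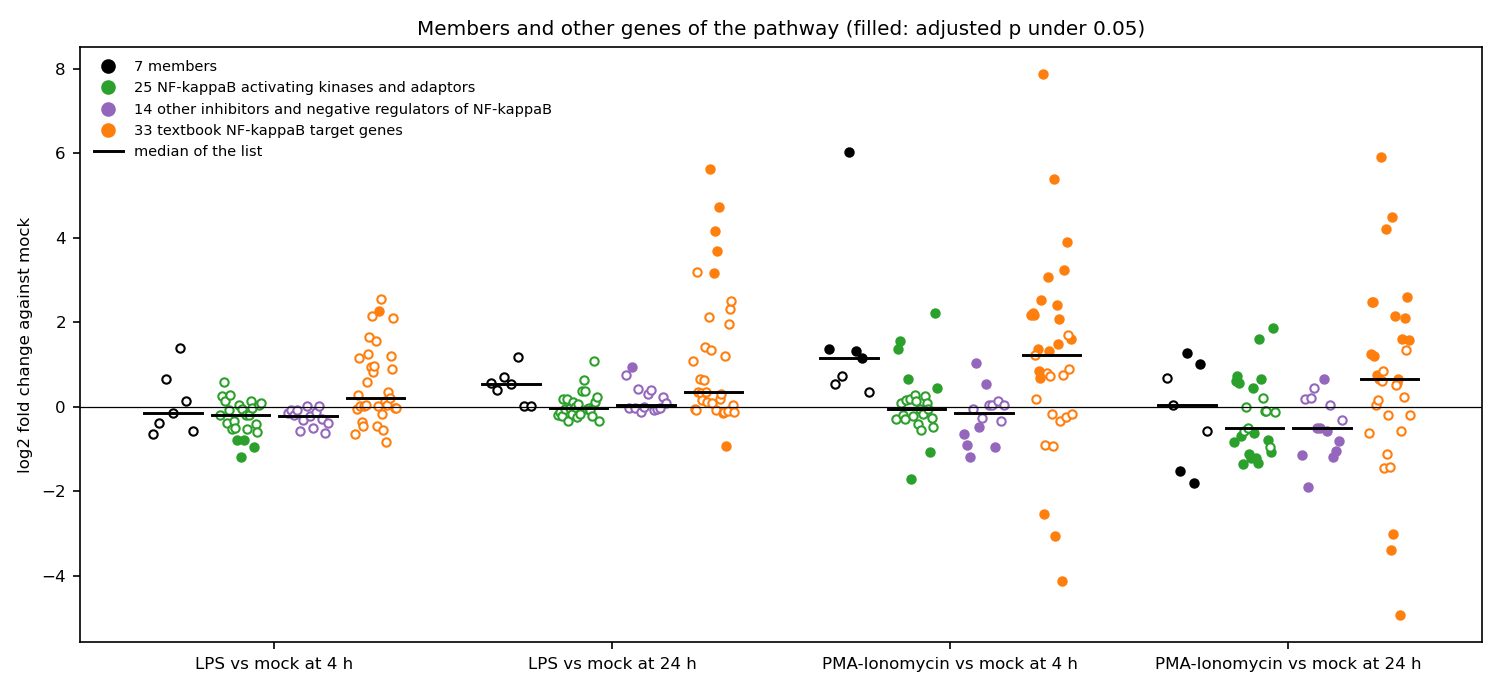
Log2 fold change against mock (y axis) of the 7 members and of the 3 other pathway lists in the 4 comparisons with mock (x axis). Each point is a gene, filled where its adjusted p was under 0.05, and bars mark list medians. The medians of the 7 members and of the 33 target genes are 1.15 and 1.24 with PMA-Ionomycin at 4 h, while those of the kinases and of the other inhibitors lie at -0.06 and -0.16.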

How the data were processed

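Total RNA of 24 cell samples was hybridised to 1-colour Agilent arrays, and the authors extracted intensity values with Agilent Feature Extraction 10.7.3.1, per the submitters' processing notes. The deposited log2 table of the series was found to hold log2 median signal minus the array mean, and was used as an alternative. Here log2 of the deposited median intensity was taken for 61657 spots that are not controls, each array's own median was subtracted, spots with outlier flags were left out, and spots were averaged per probe and probes per gene. Genes were named by the file's gene name, RefSeq accession or gene number (table of assembly mOryCun1.1, used for names alone), a name in the description, or the authors' list of added genes. The number of arrays limits the precision.

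Groups came from sample titles. limma 3.58.1 in R 4.3.3 (lmFit and eBayes with a mean per group, after the study's factors of stimulation and time) was fitted to all 28863 genes and tested on simulated data. Same-numbered arrays come from the same rabbit: deviations from group means had a median correlation of 0.228 over 60 pairs of the same rabbit and -0.0746 over 180 pairs of different rabbits, so the rabbit block was an alternative. Other alternatives were the deposited table, quantile normalization, Agilent's processed signal relative to the 75th percentile of each array, a normexp background correction (offset 50) before quantiles, no dim probes, only the arrays compared, slide as a block, array weights and each rabbit left out. Leaving out 1 mock array and reading NFKB2 from its repeated spots were added after seeing the data.

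All members are named. From each other list, up to 3 rises and 3 falls among the called genes of each comparison with mock may be named, and 3 nearest profiles for each of 3 members. Members and lists were chosen with earlier results of these data known. The 4 rabbits are the replicates. Promoter and protein sequences were not used here.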

Additional observations from a re-analysis of the deposited data

Results flagged for a closer look

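Within the 42 sets of 4 arrays (7 genes in 6 groups), 2 held an array far from the others, where chance gives about 1 in 20. For REL with LPS at T24 the array of rabbit 5 was highest, at a log2 level of 1.44 with the next at 1.05, a gap of 0.881 of the range. For NFKBID with LPS at T4 the array of rabbit 4 was lowest, at 0.33 with the next at 0.98, a gap of 0.932 of the range.

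The effect of PMA-Ionomycin differed between T4 and T24, by the interaction test, for NFKBID (-4.75 on the log2 scale), NFKBIZ (-3.13) and NFKBIA (-2.24).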

How the results depend on the processing

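Of the members' log2 differences, 540 of 603 kept their direction and their side of the threshold when a setting other than a left-out rabbit was changed, 11 lost and 27 gained a call and 25 changed sign. With a rabbit or the mock array of rabbit 5 left out, 265 of 294 did, 10 lost and 4 gained a call and 15 changed sign. No value that changed sign was called in either direction.

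Paired by rabbit as a replicate block, the LPS counts rose: at T4 from 0 to 1 of the 7 members and from 296 to 1230 of all genes, at T24 from 352 to 749, and for the change of the LPS effect with time from 561 to 1660. The calls of members that it changed are given in the report. All genes called with LPS at T4 were 114 after quantile normalization, 8 with the processed signal, 105 after normexp, 71 in the deposited table, 0 with only the arrays compared and 1031 with array weights, which also called 1 member. At T24 they were 47 with only the arrays compared and 935 with array weights, which called 1 member. For the change of the LPS effect with time they were 176 with the processed signal, 220 with only the arrays compared and 2178 with array weights. PMA-Ionomycin relative to LPS at T4 had 3 members called in place of 5 after quantile normalization, with the processed signal and after normexp.

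With 1 rabbit left out, or the doubted array where the comparison holds it, all genes called ranged from 0 to 119 for LPS at T4, 85 to 610 at T24, 7 to 1212 for the change of the LPS effect and 2268 to 3754 for mock over time, where the whole set gave 3617. Members called ranged from 0 to 1 for LPS at T4 and from 3 for PMA-Ionomycin relative to LPS at T4.

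Small differences that changed sign were these, on the log2 scale. With array weights, NFKBID was 0.032 for LPS at T4, REL -0.020 and RELB -0.052 for LPS at T24, NFKB2 -0.014 for PMA-Ionomycin at T24, NFKBIA -0.24 for PMA-Ionomycin relative to LPS at T4 and -0.44 for the change of the LPS effect. After quantile normalization, REL was -0.0027 for LPS at T24, NFKB2 -0.48 for PMA-Ionomycin at T24, and, relative to LPS, NFKBIA -0.045 at T4 and NFKB1 -0.41 at T24. With the processed signal these 4 were -0.014, -0.28, -0.27 and -0.18, and NFKBIA was -0.19 for the change of the LPS effect. After normexp the 4 were -0.027, -0.47, -0.045 and -0.40. In the deposited table NFKB2 was -0.11, NFKBIA -0.022 and NFKB1 -0.037 in the same comparisons. With the slide as a block NFKBIA was -0.024 for the change of the LPS effect, and REL for LPS at T24 was -0.0022 and -0.0095 from its probes 1 and 2 alone. With a rabbit or that array left out, values ran from -0.051 to 0.11 for REL and -0.21 to 0.14 for RELB with LPS at T24, from -0.16 to 0.24 for NFKB2 with PMA-Ionomycin at T24, from -0.27 to 0.31 for NFKBIA and -0.46 to 0.26 for NFKBIZ relative to LPS at T4, from -0.12 to 0.26 for NFKB1 relative to LPS at T24, and, for the change of the LPS effect, from -0.48 to 0.21 for NFKBIA, -0.22 to 0.0064 for REL and -0.64 to 0.18 for NFKBIZ. The cause was not tested.

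Scaling moved the balance of calls. With the processed signal, genes higher and lower with PMA-Ionomycin relative to mock were 3294 and 3706 at T4 in place of 3879 and 2693, and 4678 and 5413 at T24 in place of 6389 and 3314. Relative to LPS they were 3944 and 6145 at T4 in place of 5105 and 2607, and 5128 and 5570 at T24 in place of 6823 and 3603. That scaling put the median over all genes at -0.16 and -0.26 relative to mock and at -0.41 and -0.20 relative to LPS. The 4 arrays of a group limit the precision, and a dim probe's change is understated because background was not subtracted.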
